A study of Mus musculus with 24 samples.

Results

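The collagen chain genes encode the alpha chains that assemble, 3 at a time, into the triple-helical collagens of the extracellular matrix. They were taken as every gene whose only symbol in the annotation of the array has the form Col, a number, a and a number. This gave 44 of the 22180 genes tested, measured by 47 of the 34351 array features. Of these, 41 genes have 1 feature, while Col1a2, Col5a1 and Col6a1 have 2 each, which were averaged. The hearts came from male mice of 8 weeks that carried the Clock delta 19/delta 19 genotype, kept under 12 h of light and 12 h of dark. Hearts were taken at zeitgeber times (ZT, hours after lights on) 3, 7, 11, 15, 19 and 23, with 4 biological replicates at each time and 1 Affymetrix array for each of the 24 hearts. The mutant allele encodes a CLOCK protein that pairs with its partner BMAL1 but activates transcription poorly, and every group carries it in both copies. No wild-type hearts were analysed here, and the values describe time of day within mutant hearts.

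Collagens of the heart form layers with different roles. Fibrils of types I and III, with type V inside them, give the wall its stiffness, and type VI forms beaded filaments around cells. Type IV forms the network of the basement membranes around cardiomyocytes and capillaries, while the fibril-associated collagens (FACIT) decorate fibrils. Cardiac fibroblasts make most of the fibrillar chains, whereas endothelial cells and pericytes also make basement membrane chains. Inside the cell, prolines and lysines of the chains are hydroxylated, the chains fold into a trimer with the help of chaperones, and the trimer leaves the endoplasmic reticulum in coated vesicles.

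Deposited values were logarithms, read here as log2, and each feature had been centred on its median heart. A value of 0.20 therefore means 0.20 log2 units above that gene's median heart, and genes cannot be ranked by level. The tissue label could be checked only coarsely: the spacing of the deposited numbers marks 666 features (1.94%) as values between 8 and 16 before centring. They include features of 7 of 8 cardiomyocyte markers (Myh6, Actc1, Tnnt2, Tnni3, Ryr2, Pln and Mb). Other lists had smaller shares, with 2 of 10 fibroblast markers (Dcn and Gsn) and 3 of 7 endothelial markers (Cdh5, Kdr and Fabp4). Of the markers of pericytes with smooth muscle, 2 of 7 (Rgs5 and Abcc9) were among them. Those of activated fibroblasts gave 0 of 6 and those of macrophages 0 of 7. Of the 47 collagen features, 0 were among them, so none is shown to lie between 8 and 16 in every heart. In tissue RNA, fewer cells of a type and less RNA per cell cannot be told apart. The hearts were not equally typical: replicate 1 of ZT23 was the highest of all 24 hearts for 11 of the 44 chains and the lowest for 0, while each other heart was highest or lowest for 1 to 6 chains. ZT19 replicate 2 was the lowest heart for 6 chains, and ZT11 replicate 1 had the lowest array weight (0.54).

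Most collagen chains showed no time-of-day difference that could be told from the spread between hearts. In limma's F test over the 6 time points, 1 of 44 chains (Col6a1) passed an adjusted p of 0.05, with Benjamini-Hochberg adjustment over all genes, against 1.48% of all 22180 genes. Of the 44 chains, 5 (11.4%) had an unadjusted p under 0.05, against 13.4% of all genes. The distance between the highest and the lowest time-point mean had a median of 0.113 log2 over the chains and 0.115 over all genes. The SD within time points had a median of 0.084 over the chains and 0.087 over all genes.

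**Figure D1:**
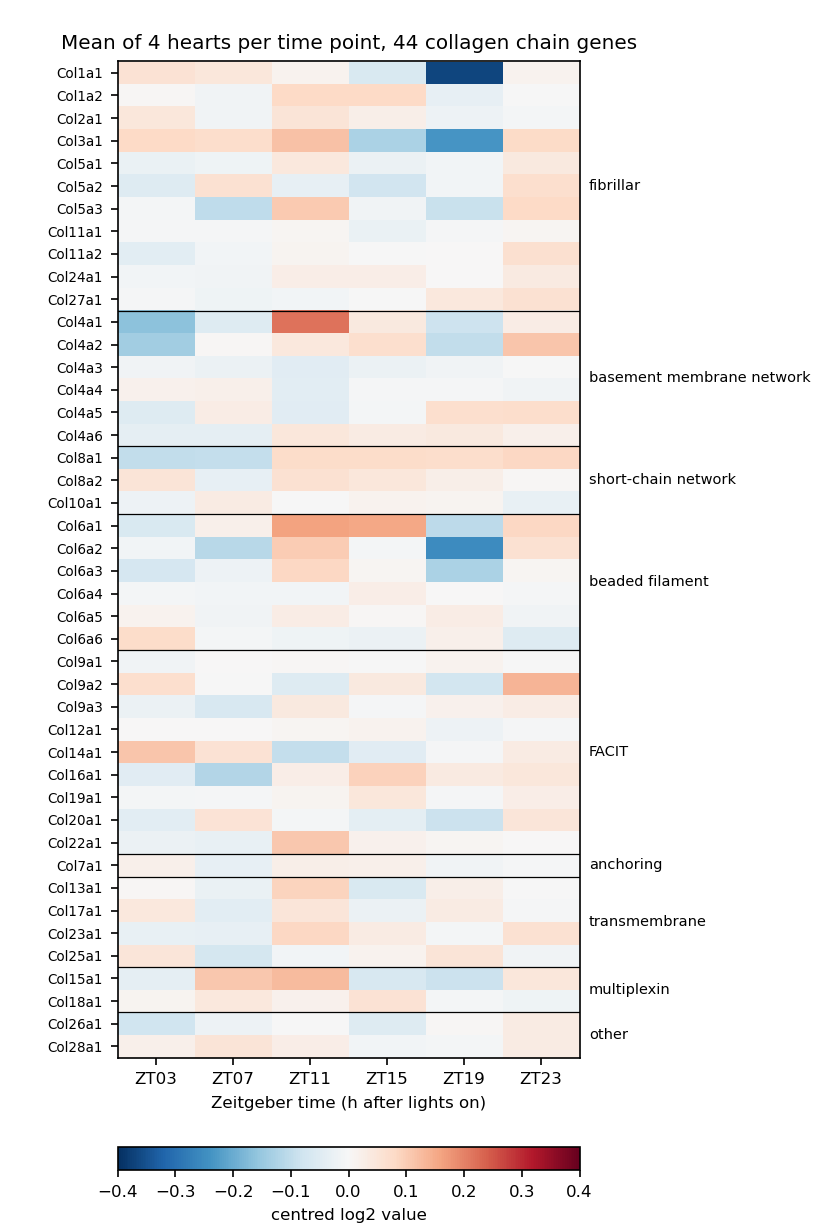
Mean centred log2 value of 4 hearts at each zeitgeber time (columns, hours after lights on) for the 44 collagen chain genes (lines), grouped by the kind of collagen. Red is above and blue below the median heart of that gene. The deepest blue cells are Col1a1 (-0.37), Col6a2 (-0.25) and Col3a1 (-0.24) at ZT19, and the deepest red cell is Col4a1 (0.22) at ZT11.

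Among the 6 chains of beaded filaments, Col6a1 differed among time points (adjusted p = 0.0384). Its chain joins those of Col6a2 and Col6a3, or another chain in the place of Col6a3, in collagen VI. The hearts gave -0.12, 0.02, -0.05 and -0.09 at ZT03, 0.08, -0.0020, 0.04 and -0.04 at ZT07, and -0.02, 0.18, 0.27 and 0.22 at ZT11. They gave 0.28, 0.14, 0.22 and -0.02 at ZT15, -0.12, -0.09, -0.12 and -0.08 at ZT19, and 0.11, 0.08, 0.09 and 0.04 at ZT23. All 4 hearts at ZT19 were thus lower than every heart at ZT07, ZT11, ZT15 and ZT23. The highest means were 0.16 ± 0.13 at ZT11 and 0.15 ± 0.13 at ZT15, and the lowest was -0.10 ± 0.02 at ZT19 (SD, n = 4 each).

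This average rests on features that disagree. Feature 17242177 had its highest mean at ZT11, with 0.51, 0.47 and 0.41 in 3 hearts and -0.04 in the fourth. Feature 17547505 had its highest mean at ZT15, with 0.29, 0.34, 0.24 and 0.05, and its lowest at ZT19, with -0.16, -0.17, -0.24 and -0.13. Neither feature passed the F test alone (adjusted p = 0.275 for 17242177 and 0.0636 for 17547505). Over the 24 hearts their correlation was -0.03, and after removal of the time-point means it was -0.32. The call also depended on single hearts: of 24 fits that each left out 1 heart, the average passed in 5, with adjusted p between 0.0147 and 0.0766. It passed without ZT07 replicate 1, ZT11 replicate 1, ZT15 replicate 1, ZT15 replicate 4 or ZT23 replicate 4. Col6a1 was therefore no stable call in these data.

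**Figure D2:**
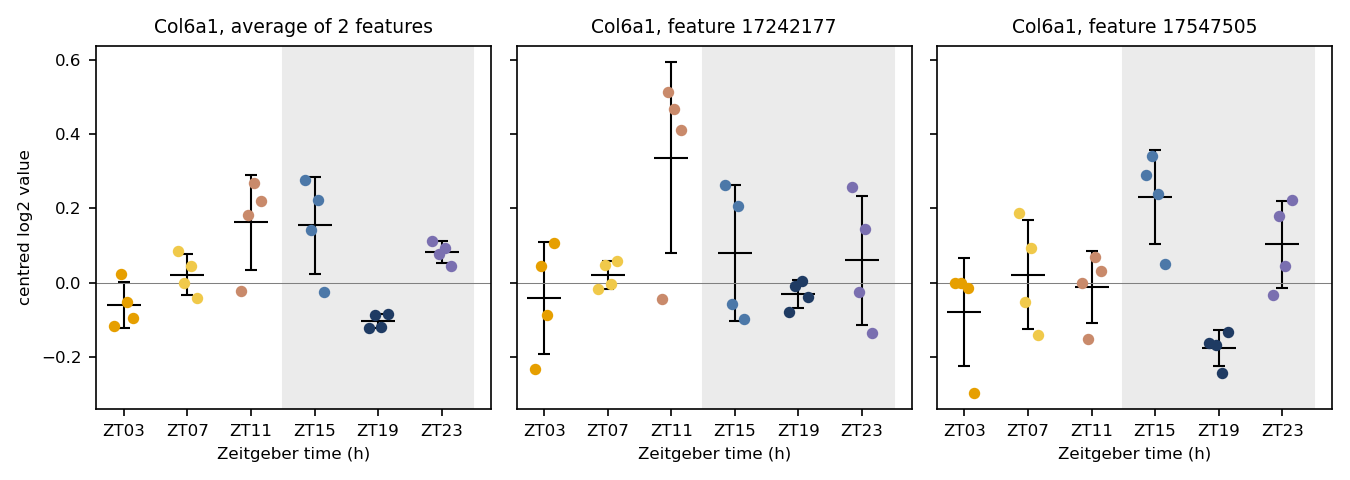
Centred log2 values of Col6a1 in single hearts (points) by zeitgeber time, as the average of its features and for each feature alone. Horizontal bars and whiskers give the mean and SD of 4 hearts, and grey marks the dark phase. The features peak at different times, ZT11 for 17242177 (mean 0.34) and ZT15 for 17547505 (mean 0.23).

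The partners of Col6a1 did not pass the F test. Col6a2 gave -0.46, -0.33, 0.00071 and -0.22 at ZT19, and its mean there, -0.25 ± 0.19, was the lowest of its 6 means, which otherwise lay between -0.11 and 0.10 (adjusted p = 0.277). Col6a3 was also lowest at ZT19, with a mean of -0.13 ± 0.11, and highest at ZT11, with 0.08 ± 0.11 (adjusted p = 0.70). Col6a6, which can take the place of the Col6a3 chain, had means between -0.05 and 0.07 (adjusted p = 0.76). The means of Col6a4 spanned 0.040 log2 and those of Col6a5 0.045 log2.

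None of the 11 fibrillar chains passed the F test, although both chains best known from scar tissue had their lowest mean at ZT19. Col1a1, the major chain of type I collagen, gave -0.01, 0.08, 0.02 and 0.15 at ZT03, 0.29, -0.07, 0.01 and -0.05 at ZT07, and -0.03, 0.33, 0.01 and -0.27 at ZT11. It gave -0.21, 0.02, 0.04 and -0.10 at ZT15, -0.41, -0.67, -0.24 and -0.15 at ZT19, and 0.25, 0.03, 0.03 and -0.25 at ZT23. Every heart at ZT19 was lower than every heart at ZT07 and ZT03, while ZT19 overlapped ZT11, ZT15 and ZT23. Its F test gave an adjusted p of 0.25, and ZT19 minus ZT07 was -0.41 ± 0.12 (SE, adjusted p = 0.56).

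Col3a1, the chain of type III collagen, followed a like course with a wider spread. Its hearts gave 0.04, 0.15, -0.01 and 0.14 at ZT03, 0.46, -0.10, -0.01 and -0.08 at ZT07, and -0.12, 0.38, 0.07 and 0.14 at ZT11. They gave 0.12, -0.32, 0.04 and -0.34 at ZT15, -0.20, -0.35, -0.23 and -0.17 at ZT19, and 0.43, 0.10, 0.01 and -0.22 at ZT23. The ZT19 hearts were all lower than those at ZT03, ZT07 and ZT11, but ZT15 held hearts as low. The F test gave an adjusted p of 0.495, and ZT19 minus ZT07 was -0.31 ± 0.14 (SE, adjusted p = 0.87).

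Col1a2, the partner of Col1a1 in type I collagen, could not be read as 1 profile. Feature 17455801 gave -0.16, -0.14, -0.06 and 0.09 at ZT19, against -0.41, -0.67, -0.24 and -0.15 for Col1a1 in the same hearts. Feature 17548532 gave 0.20, -0.05, -0.08 and -0.08 there. The features correlated at -0.11 over the 24 hearts. The average of both had means between -0.03 and 0.08 (adjusted p of the F test 0.82).

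Of the type V chains, which set fibril diameter, Col5a3 came nearest to the threshold, with means of 0.10 ± 0.09 at ZT11 and -0.10 ± 0.10 at ZT07 (adjusted p = 0.245). Col5a1 had means between -0.03 and 0.04 and Col5a2 between -0.08 and 0.07. The features of Col5a1 correlated at -0.23, so that its average also joins unlike profiles. Col11a2, a chain known from cartilage fibrils, had its highest mean at ZT23 (0.06 ± 0.05) and its lowest at ZT03 (-0.04 ± 0.05, adjusted p = 0.418). The other fibrillar chains, Col2a1, Col11a1, Col24a1 and Col27a1, had adjusted p of 0.93 or more.

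**Figure D3:**
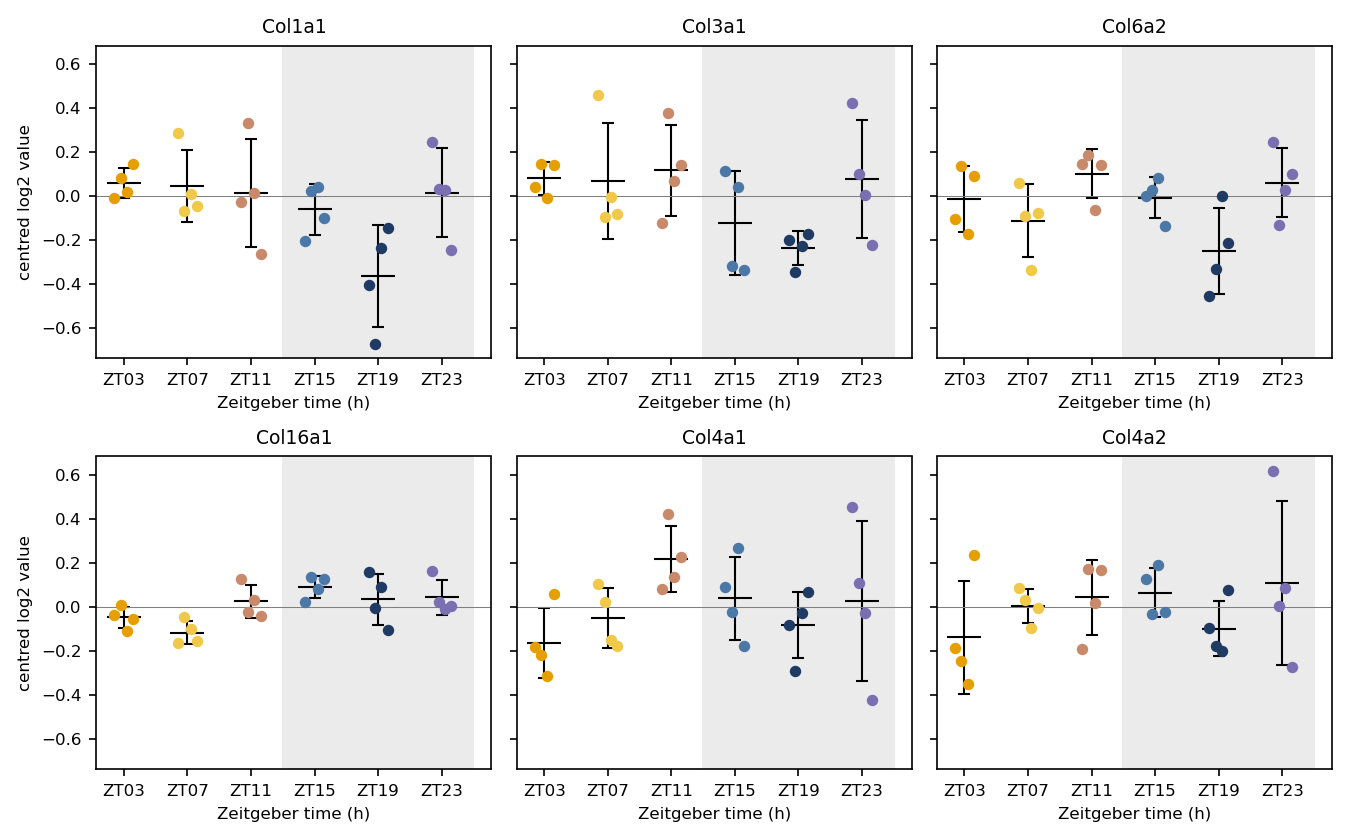
Centred log2 values of Col1a1, Col3a1, Col6a2, Col16a1, Col4a1 and Col4a2 in single hearts (points) by zeitgeber time. Bars and whiskers give the mean and SD of 4 hearts, and grey marks the dark phase. Col1a1, Col3a1 and Col6a2 have their lowest mean at ZT19 (-0.37, -0.24 and -0.25), and the hearts of Col4a1 and Col4a2 spread most at ZT23 (SD 0.37 for each).

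The 6 chains of type IV collagen had no call either. Col4a1 and Col4a2 form the trimer found in nearly all basement membranes. Col4a1 gave -0.18, -0.22, -0.31 and 0.06 at ZT03, 0.10, 0.02, -0.15 and -0.18 at ZT07, and 0.08, 0.42, 0.14 and 0.23 at ZT11. It gave 0.09, -0.02, 0.27 and -0.18 at ZT15, -0.08, -0.29, -0.03 and 0.07 at ZT19, and 0.46, 0.11, -0.03 and -0.43 at ZT23. The hearts at ZT11 were all higher than those at ZT03, and the ZT23 hearts spanned the whole range of the gene.

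Col4a2 gave -0.19, -0.25, -0.35 and 0.23 at ZT03, 0.09, 0.03, -0.10 and -0.01 at ZT07, and -0.19, 0.17, 0.02 and 0.17 at ZT11. It gave 0.13, -0.03, 0.19 and -0.02 at ZT15, -0.10, -0.18, -0.20 and 0.08 at ZT19, and 0.62, 0.01, 0.09 and -0.27 at ZT23. The same hearts were high or low for both genes, such as ZT23 replicate 1 and ZT23 replicate 4. The F test gave an adjusted p of 0.59 for Col4a1 and 0.82 for Col4a2. Col4a3, Col4a4, Col4a5 and Col4a6, chains of specialised basement membranes, had adjusted p between 0.74 and 0.99.

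Col4a1 and Col4a2 lie head to head on chromosome 8 and share a promoter region. In RefSeq's GRCm38.p6 annotation their starts are 21 bases apart on opposite strands and cross, so that the 5′ ends of the genes overlap. The bases before each start thus lie within the other gene, and motif counts do not separate promoter from transcribed sequence. The windows below run from 250 bases before to 50 bases after each start, 5′ to 3′ on the gene's own strand. They are chr8:11312777-11313076 on the minus strand for Col4a1 and chr8:11312555-11312854 on the plus strand for Col4a2. They are shown because these genes moved together between hearts. Capitals mark the 78 bases that both windows hold, read from opposite strands.
Col4a1: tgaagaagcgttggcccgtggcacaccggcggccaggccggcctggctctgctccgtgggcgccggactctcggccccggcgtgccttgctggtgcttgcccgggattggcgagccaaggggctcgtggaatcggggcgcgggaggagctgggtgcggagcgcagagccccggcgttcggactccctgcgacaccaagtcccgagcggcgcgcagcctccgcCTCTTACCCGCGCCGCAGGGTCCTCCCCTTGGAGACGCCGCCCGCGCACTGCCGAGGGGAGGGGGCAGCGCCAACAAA
Col4a2: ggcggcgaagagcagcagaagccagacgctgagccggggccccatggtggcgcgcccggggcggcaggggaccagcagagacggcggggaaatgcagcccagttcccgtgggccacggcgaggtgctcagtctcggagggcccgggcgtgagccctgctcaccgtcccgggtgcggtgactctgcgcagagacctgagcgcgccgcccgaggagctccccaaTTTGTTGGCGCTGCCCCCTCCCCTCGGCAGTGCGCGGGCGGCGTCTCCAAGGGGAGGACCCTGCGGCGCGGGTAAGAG
The E-box CACGTG, the site that CLOCK and BMAL1 bind, occurs in neither window. CCAAT occurs once on either strand in each. The GC box GGGCGG occurs in both, with 1 match for Col4a1 and 3 for Col4a2.

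Col4a5 and Col4a6 also lie head to head, on chromosome X, with starts 1343 bases apart, so that their windows share no base. The windows are chrX:141475169-141475468 on the plus strand for Col4a5 and chrX:141474027-141474326 on the minus strand for Col4a6. They are shown as another head-to-head pair, whose correlation between hearts did not pass. Capitals mark matches to CCAAT or GGGCGG on either strand.
Col4a5: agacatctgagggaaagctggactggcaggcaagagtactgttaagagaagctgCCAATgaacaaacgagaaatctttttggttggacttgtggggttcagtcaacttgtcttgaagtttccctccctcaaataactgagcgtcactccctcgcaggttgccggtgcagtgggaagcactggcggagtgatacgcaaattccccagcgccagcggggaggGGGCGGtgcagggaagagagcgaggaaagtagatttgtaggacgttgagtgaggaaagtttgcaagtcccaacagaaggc
Col4a6: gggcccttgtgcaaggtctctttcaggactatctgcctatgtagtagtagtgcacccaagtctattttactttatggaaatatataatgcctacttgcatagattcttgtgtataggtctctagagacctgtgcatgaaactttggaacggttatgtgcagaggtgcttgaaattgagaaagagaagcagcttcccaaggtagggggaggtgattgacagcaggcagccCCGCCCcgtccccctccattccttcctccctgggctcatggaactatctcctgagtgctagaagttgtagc
Neither window holds CACGTG.

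Over all collagen genes with an entry in that RefSeq table, 35 of 44 genes and 38 windows, CACGTG was found in 0 of 38 windows, against 7.15% of the 32851 windows of all genes. CCAAT was found on either strand in 34.2% of the collagen windows and in 37.4% of all. GGGCGG was found in 60.5% and 35.7%, and the TATA box TATAAA in 13.2% and 13.6%. These are letter matches within 300 bases and say nothing of sites farther away.

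The chains that trimerise together or build 1 fibril were compared heart by heart after removal of the time-point means. In 12 such pairs, p-values came from 100000 permutations of hearts within time points and were adjusted over the pairs. Col4a1 and Col4a2 gave Pearson's r = 0.87 and Spearman's rho = 0.74 over 24 hearts (permutation test, two-sided, adjusted p = 0.00024 for r and 0.0036 for rho). Without the hearts farthest from the median, both at ZT23, r was 0.77 (permutation test, adjusted p = 0.0016).

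Col1a1 and Col3a1 gave r = 0.61 and rho = 0.57 (permutation test, adjusted p = 0.035 for r and 0.055 for rho). Without the hearts farthest from the median, ZT11 replicate 2 and ZT19 replicate 2, r was 0.54 (permutation test, adjusted p = 0.15), and the call was lost. It was also lost without ZT23 replicate 1, with r = 0.54 (permutation test, adjusted p = 0.078).

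Col1a1 and the average of Col1a2 gave r = 0.54 (permutation test, adjusted p = 0.086). By feature, chosen for this look after the data were seen, Col1a1 and feature 17455801 of Col1a2 gave r = 0.81 and rho = 0.74 (permutation test, adjusted p = 0.0022 over 10 feature pairs). Feature 17548532 gave r = -0.05 with Col1a1. Type I trimers hold both chains, and only 1 of the Col1a2 features moved with Col1a1 between hearts.

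The other 9 pairs did not pass, from r = -0.39 for Col4a5 and Col4a6 (permutation test, adjusted p = 0.39) to r = 0.42 for Col11a1 and Col11a2 (permutation test, adjusted p = 0.31). Col6a1 with Col6a2 gave r = 0.12 and Col4a3 with Col4a4 r = 0.11. Without ZT11 replicate 1 and ZT19 replicate 2, Col4a5 and Col4a6 gave r = -0.70 over 22 hearts and rho = -0.70 (permutation test, adjusted p = 0.044 for r and 0.056 for rho). Without the 2 hearts farthest from the median r was -0.65 (permutation test, adjusted p = 0.127), so the call of this pair depends on which hearts are kept.

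**Figure D4:**
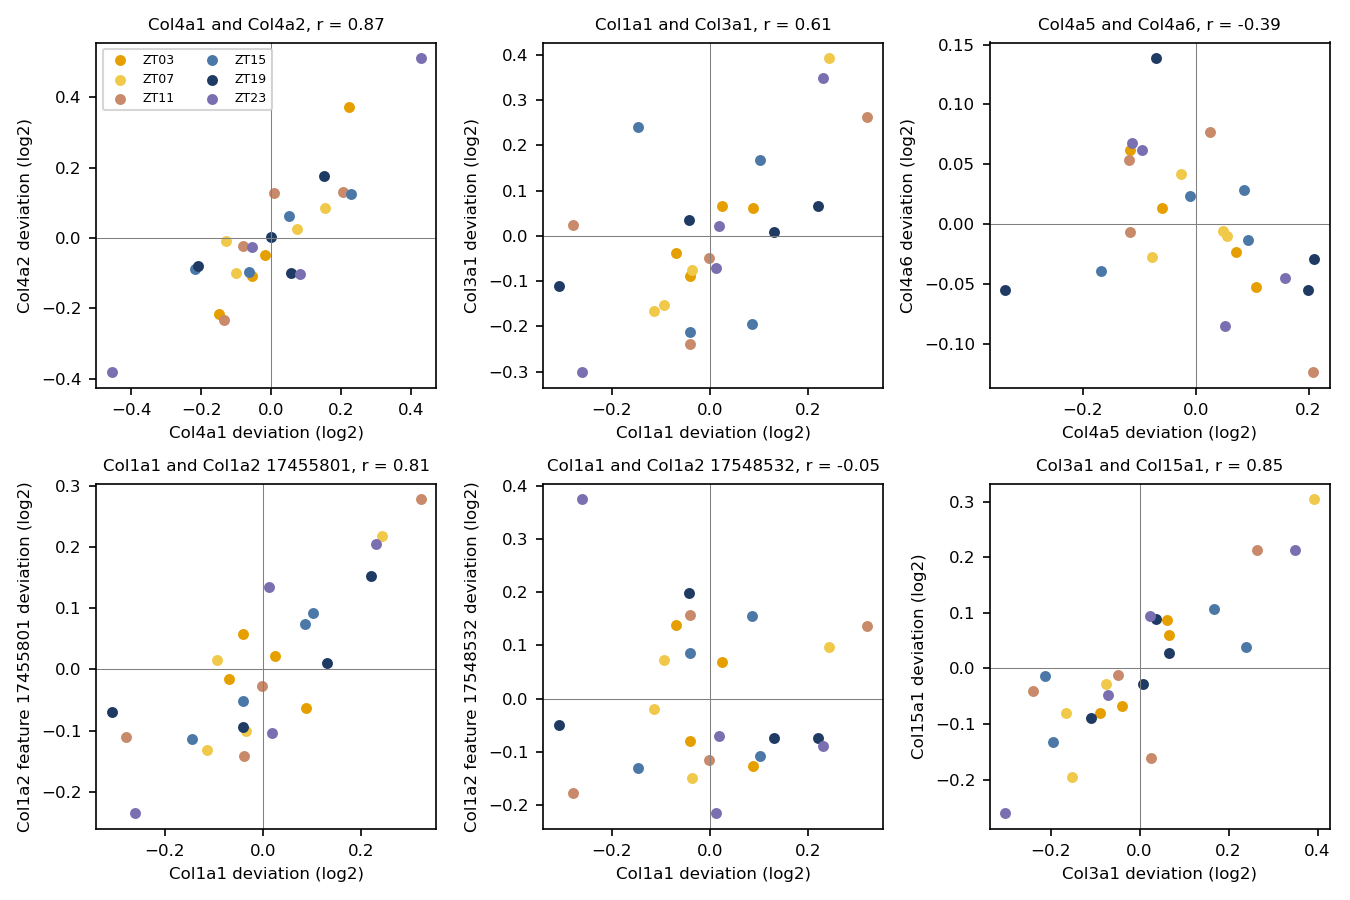
Deviation of each of the 24 hearts from its time-point mean (log2) for pairs of collagen chains, with the first gene on the x axis, the second on the y axis and points coloured by zeitgeber time. Col4a1 with Col4a2 (r = 0.87) and Col3a1 with Col15a1 (r = 0.85) lie along a rising line. Col1a1 also rises with feature 17455801 of Col1a2 (r = 0.81) but not with feature 17548532 (r = -0.05).

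Across all 946 pairs of collagen chains, the deviations correlated at a median of 0.08, and 5.81% of pairs had r above 0.5. Among the 973984 pairs of a collagen chain with another gene, the median was 0.0013 and 2.13% had r above 0.5. All these points share the same 24 arrays, so the values are a description. The highest values joined fibrillar, basement membrane and multiplexin chains. After Col4a1 with Col4a2 came Col3a1 with Col15a1 (0.85), Col3a1 with Col4a1 (0.81), Col4a1 with Col15a1 (0.76), Col1a1 with Col15a1 (0.75) and Col5a3 with Col15a1 (0.73).

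Col15a1 encodes a chain of the zone between basement membrane and fibrils. Among the 6 genes Col1a1, Col3a1, Col4a1, Col4a2, Col5a3 and Col15a1, chosen after their values were seen, the 15 pairs had r between 0.49 and 0.87, with a median of 0.70. Without ZT23 replicate 1 they had r between 0.38 and 0.83, with a median of 0.63. The mean centred values of marker lists for fibroblasts, endothelial cells, pericytes with smooth muscle and cardiomyocytes were set against Col1a1, Col3a1, Col4a1, Col4a2, Col15a1 and Col6a1 in the same way. None of these 24 correlations passed after adjustment (permutation test, smallest adjusted p = 0.20). The highest were those of the cardiomyocyte list with Col4a2 (r = 0.68) and Col4a1 (r = 0.60), which were 0.19 and 0.37 without the 2 hearts farthest from the median. Not all values fell at this step. For Col1a1, r rose from 0.37 to 0.55 with the endothelial list and from 0.23 to 0.50 with the cardiomyocyte list.

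No fibril-associated chain passed the F test, and Col16a1 came nearest of the 9 measured. Its hearts gave -0.04, 0.01, -0.11 and -0.05 at ZT03, -0.16, -0.05, -0.10 and -0.16 at ZT07, and 0.13, -0.02, 0.03 and -0.04 at ZT11. They gave 0.02, 0.13, 0.08 and 0.13 at ZT15, 0.16, -0.0032, 0.09 and -0.11 at ZT19, and 0.16, 0.02, -0.01 and 0.0032 at ZT23. All hearts at ZT15 were higher than all hearts at ZT03 and ZT07. The adjusted p was 0.18 in the F test and 0.22 for ZT15 minus ZT03, which was 0.14 log2.

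Col14a1, which binds fibrils through decorin, had its highest mean at ZT03 (0.11 ± 0.15) and its lowest at ZT11 (-0.10 ± 0.06, adjusted p = 0.57). Col22a1, known from junctions of muscle with matrix, had its highest mean at ZT11 (0.11 ± 0.14), where ZT11 replicate 1 alone gave 0.31 (adjusted p = 0.58). Col20a1 had means between -0.09 and 0.06. Col9a2, a chain of the cartilage collagen IX, had means between -0.07 and 0.14. The remaining chains Col9a1, Col9a3, Col12a1 and Col19a1 had adjusted p of 0.64 or more.

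Among the short-chain network collagens, Col8a1, made by vascular cells and fibroblasts, had its lowest means at ZT03 and ZT07. Its means were -0.10 ± 0.16 at ZT03 and -0.10 ± 0.15 at ZT07, and between 0.07 and 0.08 at the 4 later times (adjusted p = 0.675). At ZT23 the hearts gave 0.44, -0.02, -0.08 and -0.02, so that mean rests on ZT23 replicate 1. The F test could not tell the differences between time points from the spread between hearts. The means of Col8a2 spanned 0.091 log2 and those of Col10a1, known from cartilage, 0.062 log2. Col15a1 had means of 0.11 ± 0.21 at ZT07 and 0.13 ± 0.16 at ZT11 and was lowest at ZT19, with -0.09 ± 0.08 (adjusted p = 0.64). Col18a1, whose end fragment is endostatin, had means between -0.02 and 0.06 (adjusted p = 0.88).

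The 23 chains outside the naming rule had time-point means that spanned 0.026 log2 (Col9a1) to 0.149 log2 (Col13a1), with adjusted p between 0.64 and 0.998. They include the anchoring fibril chain Col7a1, the transmembrane chains Col13a1, Col17a1, Col23a1 and Col25a1, and Col26a1 and Col28a1.

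No collagen chain passed the test between the dark and the light phase. In limma's contrast of ZT15, ZT19 and ZT23 minus ZT03, ZT07 and ZT11, 0 of 44 chains passed, against 0.379% of all genes. At an unadjusted p under 0.05 there were 3 of 44 chains (6.82%), against 10.5% of all genes. The difference was positive for 20 chains and negative for 24, with a median of -0.0030 log2 over the chains and 0.0022 over all genes. The 95% interval lay within 0.2 log2 of 0 for 39 of the 44 chains and within 0.1 log2 for 25 of them. The farthest bound of any interval from 0 was 0.349 log2.

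The 3 chains under an unadjusted p of 0.05 were Col16a1, Col1a1 and Col3a1. Col16a1 had a median of 0.05 in the 12 dark hearts (-0.11 to 0.16) and of -0.04 in the 12 light hearts (-0.16 to 0.13). Of the dark hearts, 11 of 12 were above the median of the light hearts, and the difference was 0.10 ± 0.03 (SE, 95% interval 0.04 to 0.17, adjusted p = 0.15).

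Col1a1 had a median of -0.12 in dark hearts (-0.67 to 0.25) and of 0.01 in light hearts (-0.27 to 0.33). The difference was -0.18 ± 0.07 (SE, 95% interval -0.32 to -0.03, adjusted p = 0.35), and 7 of 12 dark hearts were below the light median. Col3a1 had a median of -0.19 in dark hearts (-0.35 to 0.43) and of 0.05 in light hearts (-0.12 to 0.46). Its difference was -0.18 ± 0.08 (SE, 95% interval -0.35 to -0.02, adjusted p = 0.40), and 9 of 12 dark hearts were below the light median. The ranges of dark and light hearts overlapped for each of these genes.

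**Figure D5:**
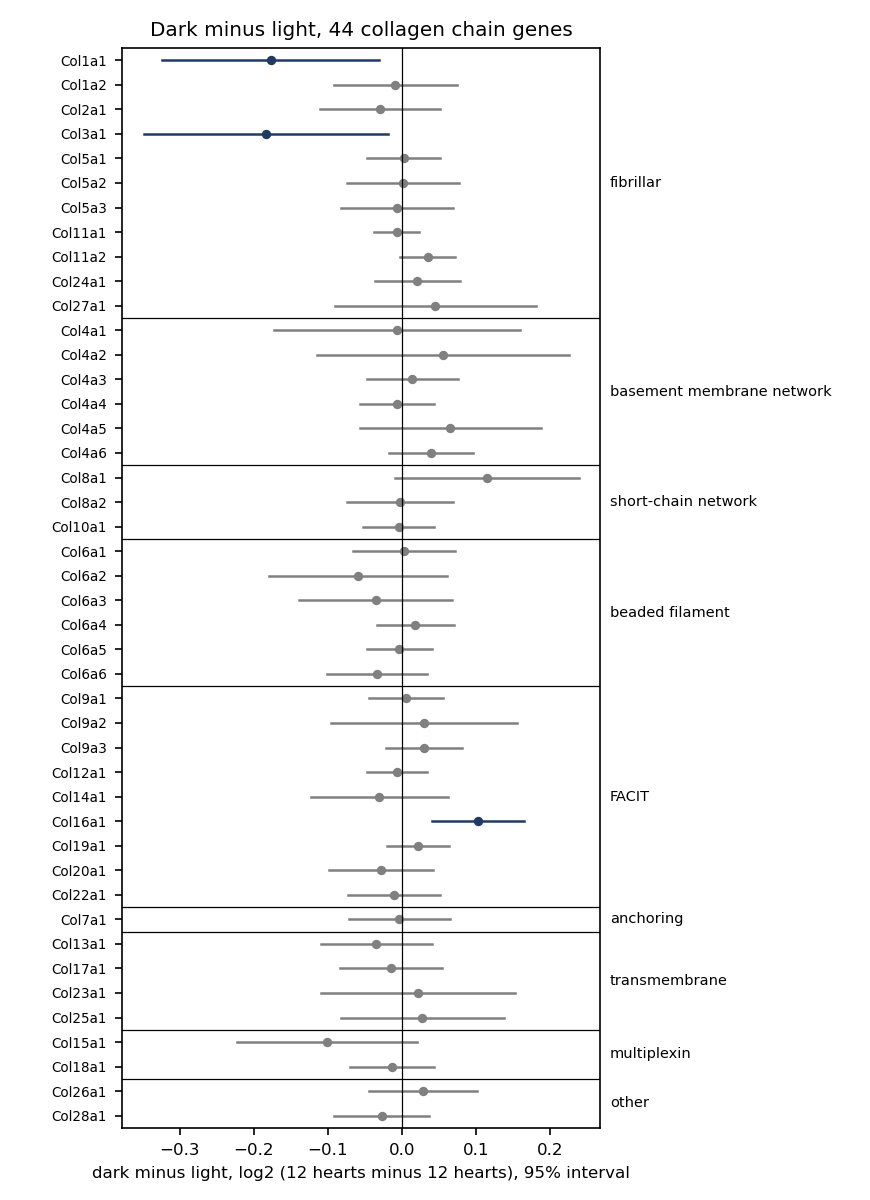
Dark minus light difference (log2, 12 hearts minus 12 hearts) of the 44 collagen chains, as points with unadjusted 95% intervals from limma, grouped by the kind of collagen. The intervals of Col1a1 and Col3a1 lie below 0 and that of Col16a1 above 0 (dark blue). None passed after adjustment over all genes.

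No daily profile was called among the chains. A cosine of 24 h passed for 0 of 44 chains, against 0.0631% of all genes, and at an unadjusted p under 0.05 for 5 of 44 (11.4%), against 10.8% of all genes. The smallest adjusted p among the named chains was that of Col16a1 (0.22), with an amplitude of 0.08 ± 0.02 log2 (SE, mean to peak) and a peak at ZT17.4. Col1a1 had an amplitude of 0.16 and a peak at ZT6.2 (adjusted p = 0.37), and Col3a1 of 0.15 with a peak at ZT5.8 (adjusted p = 0.45). A 12 h term passed for 0 of 44 chains, against 0.00451% of all genes, and at an unadjusted p under 0.05 for 4 of 44 (9.09%), against 10.5%. These chains were Col5a3, Col6a2, Col6a1 and Col11a2. Only 1 cycle was sampled, so that no fitted cosine can show a repeat.

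Time points 12 h apart gave the same count. For ZT15 minus ZT03, 0 of 44 chains passed, against 1.08% of all genes, and 2 of 44 (4.55%) had an unadjusted p under 0.05, against 13.0%. These were Col6a1, at 0.21 ± 0.06 (SE, adjusted p = 0.073), and Col16a1. For ZT19 minus ZT07, 0 of 44 chains and 0% of all genes passed, and 5 of 44 (11.4%) had an unadjusted p under 0.05, against 5.58%. For ZT23 minus ZT11, 0 of 44 and 0% passed, and 0 of 44 had an unadjusted p under 0.05, against 7.34%.

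The time of the highest mean was uneven over the chains. It was ZT11 for 18 of 44 chains (40.9%, against 18.5% of all genes) and ZT23 for 11 (25.0%, against 16.3%), while ZT19 held the highest mean of 2 chains (4.55%, against 15.9%). These counts depended on single hearts. ZT11 held 13 chains (29.5%, against 19.1%) without ZT11 replicate 1. It held 11 chains (25.0%, against 18.9%) without both ZT11 replicate 1 and ZT19 replicate 2. ZT19 then held 10 chains (22.7%, against 17.7%). ZT23 held 7 chains (15.9%, against 18.2%) without ZT23 replicate 1. The lowest mean fell at ZT07 and at ZT19 for 11 chains each (25.0%, against 15.8% and 13.6% of all genes). Without both ZT11 replicate 1 and ZT19 replicate 2, these counts were 9 and 11 (20.5% and 25.0%, against 14.8% and 15.6%). Hearts are shared by all chains, so these shares are a description only.

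Genes that process, secrete, bind or regulate collagens were measured beside the chains. Over 6 lists, 75 of 81 genes were measured, and 6 of the 75 passed in at least 1 of the 7 tests, against 1 of the 44 chains and 1.96% of all genes. In the group of modification and folding (16 genes), 2 rose in the dark phase and 0 fell, against 0.135% higher and 0.243% lower of all genes. P4ha1, a catalytic subunit of the prolyl 4-hydroxylase that stabilises the triple helix, had a median of 0.18 in dark hearts (-0.05 to 0.36) and of -0.14 in light hearts (-0.28 to 0.03). It was 0.29 ± 0.05 higher in the dark (SE, adjusted p = 0.017), with all 12 dark hearts above the light median.

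Serpinh1, the collagen chaperone HSP47, had a median of 0.12 in dark hearts (-0.06 to 0.40) and of -0.17 in light hearts (-0.30 to 0.10). It was 0.26 ± 0.06 higher in the dark (SE, adjusted p = 0.036), with 12 of 12 dark hearts above the light median. This call held in 9 of 24 fits that each left out 1 heart, with adjusted p up to 0.075, whereas that of P4ha1 held in 24 of 24. P4ha2, the sister subunit, was 0.18 ± 0.04 higher in the dark (SE) and did not pass (adjusted p = 0.059).

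P3h1, which hydroxylates a proline of fibrillar chains at the 3 position, ran the other way at ZT15. Its hearts gave -0.19, -0.26, -0.31 and -0.40 at ZT15, against 0.15, 0.04, 0.44 and 0.12 at ZT03, and the groups did not overlap. It fell by 0.48 ± 0.10 (SE, adjusted p = 0.024), against 0.879% of all genes called lower, and the call held in 21 of 24 fits that each left out 1 heart. In the dark phase as a whole P3h1 did not pass (-0.20, adjusted p = 0.13). In this group, 8 of 16 genes had an unadjusted p under 0.05 for dark minus light, against 6.82% of the chains and 10.5% of all genes.

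Of the 7 secretion genes, Sar1b passed in 3 tests. It encodes a small GTPase that starts the coat of vesicles leaving the endoplasmic reticulum. Its hearts gave -0.00091, -0.08, -0.39 and -0.26 at ZT15, against 0.29, 0.24, 0.19 and 0.31 at ZT03, with no overlap. It fell by 0.44 ± 0.09 (SE, adjusted p = 0.026), and this call held in 18 of 24 fits that each left out 1 heart. Its dark minus light difference was -0.25 ± 0.05 (SE, adjusted p = 0.038), which held in 6 of 24 such fits, and its F test gave an adjusted p of 0.034, which held in 12 of 24. The other 6 secretion genes did not pass, and 5 of the 7 had an unadjusted p under 0.05 for dark minus light, against 10.5% of all genes.

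Of the 9 collagen receptor genes, Itgb1 passed the F test (adjusted p = 0.021). It encodes the beta chain shared by the collagen-binding integrins. Its hearts gave 0.05, 0.13, 0.26 and 0.11 at ZT03 and -0.16, -0.22, -0.12 and -0.12 at ZT11, the lowest time, where all hearts were lower than those of every other time point. The call held in 23 of 24 fits that each left out 1 heart. Among 17 genes of transforming growth factor beta control, Smad2, a signal carrier of that pathway, passed the F test (adjusted p = 0.035). It was highest at ZT19, with 0.09, 0.32, 0.17 and 0.13, and its call held in 11 of 24 such fits. None of the 11 genes of propeptide cleavage and cross-linking (0 of 11) and none of the 15 of breakdown and its inhibitors (0 of 15) passed in any test.

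Among the marker lists of cells that make collagens, only that of fibroblasts held genes that passed a test. In the F test, 1 of 10 fibroblast markers (Prrx1) passed, and 0 of 6 markers of activated fibroblasts, 0 of 7 of endothelial cells and 0 of 7 of pericytes with smooth muscle, against 1.48% of all genes. The 10 fibroblast markers together averaged 0.13 at ZT03 (0.06 to 0.20 over hearts), 0.02 at ZT07, -0.04 at ZT11, and -0.05 at ZT15 (-0.13 to 0.01). They averaged -0.0045 at ZT19 and -0.04 at ZT23. For ZT15 minus ZT03, 2 of the 10 fell (Dcn and Prrx1), against 0.879% of all genes. Of the 10 estimates, 8 were negative and 2 positive. In the F test, 6 of the 10 had an unadjusted p under 0.05, against 13.4% of all genes. The 24 h cosine passed for 1 of the 10, against 0.0631% of all genes. For dark minus light, 0 of the 10 passed and 3 had an unadjusted p under 0.05, against 10.5% of all genes. All 10 of these differences were negative, against 10519 of 22180 genes. The lowest time of Col1a1, Col3a1 and Col6a2 was ZT19, when the fibroblast markers ranged from -0.08 to 0.10. The 6 markers of activated fibroblasts averaged -0.07 at ZT19 (-0.13 to 0.02), their lowest time. The 7 endothelial markers averaged between -0.06 (ZT07) and 0.05 (ZT23). The 5 genes listed for skeletal muscle averaged between -0.11 (ZT03) and 0.12 (ZT23), with 1 of 5 (Ckm) passing the F test. Whether these 5 genes mark skeletal muscle in heart tissue was not tested. The part of cell makeup in the chains' values was not tested.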

How the data were processed

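Gene expression was measured with 1 single-colour Affymetrix array for each of 24 hearts, from 500 ng of total RNA per the labels' protocols. The deposited log2 values had been centred by the authors on each feature's median over the arrays; the log base, the summarization and the normalization are not given in the sources used here, and sizes would be 1.44 times larger with a natural log. Signal over background is unknown, and the number of arrays limits the precision.

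Features with 1 symbol were averaged per gene (22180 genes), with no filter on low values, since centred values give no measured level. Tests used limma 3.58.1 in R 4.3.3 on all genes and all 24 hearts, with moderated F and contrast tests, SE from the fit and Benjamini-Hochberg adjustment at 0.05; the steps were tested on simulated data. Named were chains that passed a test, those of smallest p in each test except the 12 h term, and 13 chains always described. The members, lists and tests were chosen with earlier results of these data known. Sequences are RefSeq's, GRCm38.p6. Deviations from time-point means had a mean r of 0.011 over 60 pairs of hearts with the same replicate number. Over 180 pairs with other numbers the mean r was -0.0037. Values above 0.1 were found in 10 of the 60 and 19 of the 180 pairs. Numbers were not used as pairs, and counts with the replicate number as a block are given below. No arrays were identical. P-values of the limma tests set differences between time points against the spread between hearts. Those of the correlations come from permuting hearts within time points.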

Additional observations from a re-analysis of the deposited data

Results flagged for a closer look

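For 21 named chains and 6 time points, the highest or lowest of the 4 hearts was compared with the other 3 by Dixon's test, and 5 of 126 groups passed, where chance gives about 1 in 20. Col3a1 gave 0.46 log2 in ZT07 replicate 1, against -0.01 in the nearest heart. Col8a1 gave 0.44 in ZT23 replicate 1, against -0.02 in the nearest heart, and that heart was the highest for 11 chains. Col9a2 gave 0.29 in ZT03 replicate 2, against 0.02. Col14a1 gave 0 in ZT11 replicate 2, against -0.11. Col5a2 gave 0.05 in ZT07 replicate 4, against 0.06, in a group whose whole range was that narrow.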

How the results depend on the processing

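The 44 chains had 1 call in the F test under quantile normalization, array weights, a robust variance prior, and without ZT11 replicate 1 and ZT19 replicate 2. The count was 0 with each feature tested on its own, with adjustment over all deposited features, and with the replicate number as a block. With each heart left out in turn it ranged from 0 to 1. For ZT15 minus ZT03 the count was 1 (Col6a1) with array weights and without ZT11 replicate 1 and ZT19 replicate 2, and 0 to 1 with each heart left out; in the other 5 tests it was 0 under every alternative and in every leave-one-out fit. Over all genes, the F test called 329 genes, 218 with the replicate block and 28 to 467 with each heart left out. Dark minus light called 84 genes, 144 with quantile normalization and 131 without those 2 hearts. The 24 h cosine called 14, 30 with quantile normalization, 59 with array weights and 3 adjusted over all features. The 12 h term called 1, 7 with quantile normalization, 14 with array weights, 2 adjusted over all features and 0 under the others. ZT15 minus ZT03 called 239, 430 with array weights and 365 without those 2 hearts. ZT19 minus ZT07 and ZT23 minus ZT11 called 0, and at most 8 and 5 under these alternatives. With each heart left out, dark minus light called 51 (without ZT03 replicate 3) to 183 genes (without ZT11 replicate 1), the 24 h cosine 3 to 45 (without ZT19 replicate 4), the 12 h term 0 to 148 (without ZT11 replicate 4) and ZT15 minus ZT03 25 (without ZT03 replicate 3) to 326. The lowest F test count, 28, was also that without ZT03 replicate 3. Of the 12 chain pairs, 2 passed, 3 did without ZT11 replicate 1 and ZT19 replicate 2, and 1 did without the 2 farthest hearts, with quantile normalization, or without ZT23 replicate 1 (an alternative added after seeing the data). The replicate block changed no other call among the chains. Of 1393 single-gene or single-pair values under alternatives, 101 lost a call, 5 gained one and 0 reversed a called direction. Most of these values belong to results that were not called at first and had no call to lose. Sizes from the F test and the 24 h cosine have no sign, so they could not reverse. The causes of lost and gained calls were not tested. The unadjusted 95% interval of dark minus light had a median half-width of 0.0698 log2 over the chains, and a call after adjustment needs a larger difference than this: Col16a1 differed by 0.10 and did not pass.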
